A study of Homo sapiens with 2 samples.

Results

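The transcripts described here are 9 small RNAs made by RNA polymerase III: the 7SK RNA (RN7SK), the 7SL RNA (RN7SL1), the RNA subunits of RNase P (RPPH1) and RNase MRP (RMRP), a 5S ribosomal RNA (RNA5S9) and the Y RNAs RNY1, RNY3, RNY4 and RNY5. They were taken by symbol from the annotation of the array's probes, and all 9 were found, with 10 of the 47323 probes and among 20046 genes named by a probe. They were measured in SK-ES1, an established Ewing sarcoma cell line, in wild type cells and in a line adapted to radiation, with 4 Gy in its label. Each of these states was 1 sample of total RNA on 1 Illumina expression BeadChip. The schedule of irradiation is not in the labels, nor how long before harvest it ended, nor whether the adapted cells were a clone or a mixed culture. With 1 array per state there was no spread between replicates, so every difference below is a description of the arrays with no test, and the number of arrays limits the precision.

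RNA polymerase III makes short, abundant, mostly non-coding RNAs. It starts 5S and 7SL genes through elements inside the transcribed part, helped by upstream sequence for 7SL, while 7SK, RNase P, RNase MRP and Y RNA genes carry their promoter upstream, with a TATA box and a proximal sequence element that the SNAPc complex binds. Its transcripts end in a run of U and in general carry no poly(A) tail. The RNA was labelled with a TotalPrep kit, per the labels, a method that primes on poly(A), so the signal depends on how much of each RNA entered such a reaction and is no measure of its amount per cell. In RNA of whole cultures, a change in each cell and a change in the share of cells that hold an RNA cannot be told apart.

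All 9 transcripts gave a higher signal in the radiation-adapted cells. By log2 ratio of normalized signals, radiation-adapted minus wild type, they ran from 0.51 (RN7SL1) to 2.74 (RN7SK) with a median of 1.0, against a median of -0.04 over the 10189 genes detected on at least 1 array, of which 46.6% were above 0. A gene was called detected with a detection p-value under 0.01. Measured ratios of 2-fold or more were found for 5 of the 9, RN7SK, RPPH1, RNA5S9, RNY4 and RMRP, where 4.02% of all detected genes were as much higher. RN7SK, RPPH1 and RNA5S9 were past 4-fold, where 0.412% of detected genes lay. Without background correction 0 of the 9 were past 4-fold, and with an offset of 50 only 1. In these settings fewer of all detected genes were at least 2-fold higher too, 0.962% and 2.09%. None of the 9 was lower, and 2.07% of detected genes were at least 2-fold lower. RMRP and RNY4 were detected in radiation-adapted cells alone, so they had to be higher there. The 7 detected on both arrays were all above 0, with a median of 0.97, beside 4287 of 9144 genes so detected. Since RMRP and RNY4 were not detected in wild type cells, only lower bounds can be given for them. These hold only with the background correction and offset used. With all such genes at their bound 3 of the 9 were at least 2-fold higher, beside 2.93% of all detected genes.

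**Figure D1:**
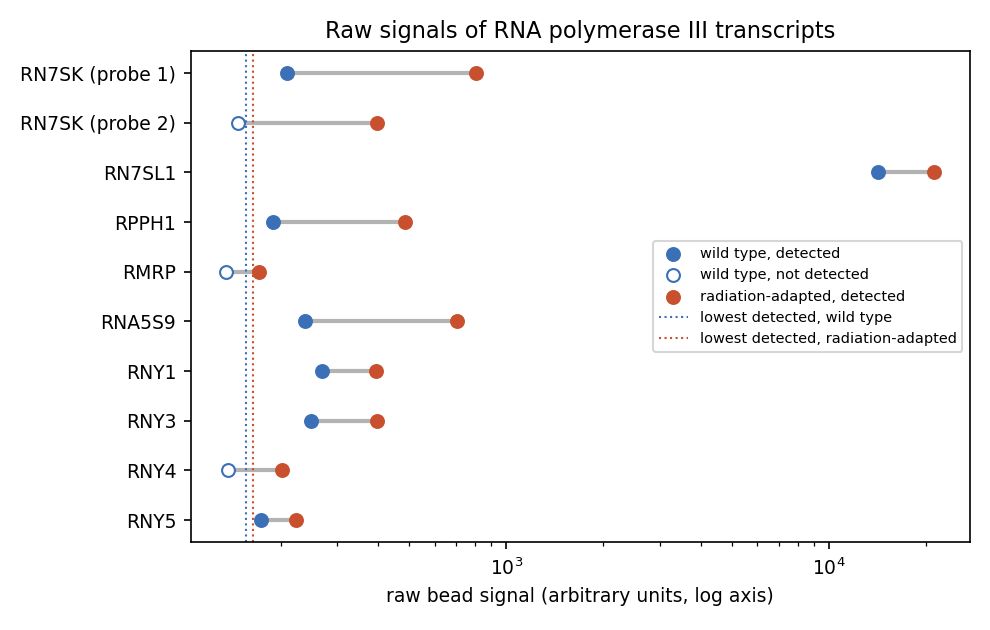
Raw bead signal of each probe (log axis, arbitrary units) on the wild type array (blue) and the radiation-adapted array (red), with open points for signals not detected and dotted lines at the lowest detected signal of each array (156.9 and 164.6). Every red point lies to the right of its blue point, and the gap is widest for the brighter RN7SK probe (probe 1).

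The sequence around these genes shows how closely some of them sit to protein-coding genes. The promoter table used here, from RefSeq (GRCh38.p14), has no entry for the 9 RNAs, and their own sequences are not printed. It has the windows of PARP2, next to RPPH1, and of CCDC107, next to RMRP, each running from 250 bases before to 50 after the gene's start. These windows are printed because each lies over or beside the edge of the RNA's interval, so that the same stretch of DNA lies between the start of a protein-coding gene and an RNA polymerase III gene. Capitals mark matches to 3 motifs searched on both strands: the octamer ATGCAAAT, the letters TCACCNTAA from the core of the proximal sequence element, and TTATA, which on opposite strands can overlap itself.
PARP2 (chr14:20343385-20343684, GRCh38.p14, plus strand): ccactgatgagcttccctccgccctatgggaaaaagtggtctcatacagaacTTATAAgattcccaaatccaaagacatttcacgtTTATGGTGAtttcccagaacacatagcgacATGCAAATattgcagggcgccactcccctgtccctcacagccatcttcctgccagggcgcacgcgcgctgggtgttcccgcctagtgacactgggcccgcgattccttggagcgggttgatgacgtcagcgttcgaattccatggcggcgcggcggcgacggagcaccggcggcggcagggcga
CCDC107 (chr9:35658042-35658341, GRCh38.p14, plus strand): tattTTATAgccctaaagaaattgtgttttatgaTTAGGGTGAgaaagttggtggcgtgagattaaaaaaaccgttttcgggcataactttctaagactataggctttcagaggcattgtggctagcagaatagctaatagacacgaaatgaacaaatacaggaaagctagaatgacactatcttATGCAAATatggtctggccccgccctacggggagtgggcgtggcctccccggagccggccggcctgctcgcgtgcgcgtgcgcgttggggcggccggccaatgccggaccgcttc
Both windows held all 3 motifs. In each, the proximal element letters were on the strand opposite to the protein-coding gene, between the TTATA near the RNA's side and the octamer farther in. Over all 35116 promoter windows of the table the octamer was found in 1.77%, the proximal element letters in 0.444% and TTATA in 20.4%. The window of GSTA4, next to RN7SK, held 0 of the 3. A match is a description of letters and was not tied to binding.

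RN7SK is the scaffold of a particle that holds the elongation kinase P-TEFb inactive, and it had the largest ratio of the 9. Its brighter probe read 209.9 in wild type and 804.4 in radiation-adapted cells. Its other probe read 147.6 in wild type, not detected, and 397.2 in radiation-adapted cells. Both probes were thus much brighter on the radiation-adapted array. The normalized ratios were 6.70-fold for the brighter probe, rank 7 among 10189 genes, and at least 5.91-fold for the other. RN7SK was the only one of the 9 with a further probe. Since that probe was not detected in wild type cells, it gives no second measure of the size. It gives the direction and a lower bound that holds only with the background correction and offset used. Between the brightest detected probes of a gene the log2 ratios differed with an SD of 0.47 over 2567 genes.

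RPPH1 is the catalytic RNA of RNase P, which trims the 5′ ends of tRNA precursors. Its probe read 189.6 in wild type and 485.6 in radiation-adapted cells, and it was detected on both arrays. The ratio was 4.49-fold, rank 32 of 10189. RMRP is the related RNA of RNase MRP, which cuts precursors of ribosomal RNA. It read 135.8 in wild type, not detected, and 171.2 in radiation-adapted cells, just above the lowest detected signal of that array. Its measured ratio was 2.01-fold, but the bound was at least 1.21-fold, so RMRP stood close to the detection limit and its size of change was poorly determined.

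RNA5S9 is a copy of 5S ribosomal RNA, a component of the large ribosomal subunit. Its probe read 237.5 in wild type and 703.3 in radiation-adapted cells, both detected, a ratio of 4.46-fold, rank 34. The 5S copies lie in tandem and are nearly identical, so the signal cannot be assigned to this copy. Of the ribosomal RNAs made by RNA polymerase I, that of the small subunit (RNA18SN5) had a log2 ratio of 2.19 and the probes for that of the large subunit (RNA28SN5) had 2.06 and 2.99, beside 2.16 for RNA5S9.

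RN7SL1 is the RNA of the signal recognition particle, which brings ribosomes making secreted proteins to the endoplasmic reticulum. Its probe read 14170.2 in wild type and 21192.5 in radiation-adapted cells. The ratio of 1.42-fold ranked 1533 among all detected genes. It was the smallest measured ratio of the 9, but the bound of RMRP was lower, and without background correction RMRP, RNY5, RNY4 and RNY1 had smaller ratios. Among the 166 genes with a mean raw signal of at least 10000 over the arrays, the SD of the log2 ratio was 0.24, with a median of -0.04, and RN7SL1 at 0.51 ranked 10. The brightest probes read 27430.5 and 27995.1, and whether signals near the top of the range understate a change was not tested. RN7SL1 has near-identical copies, and its sequence is the source of Alu repeats, so the probe may read more than this gene.

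**Figure D2:**
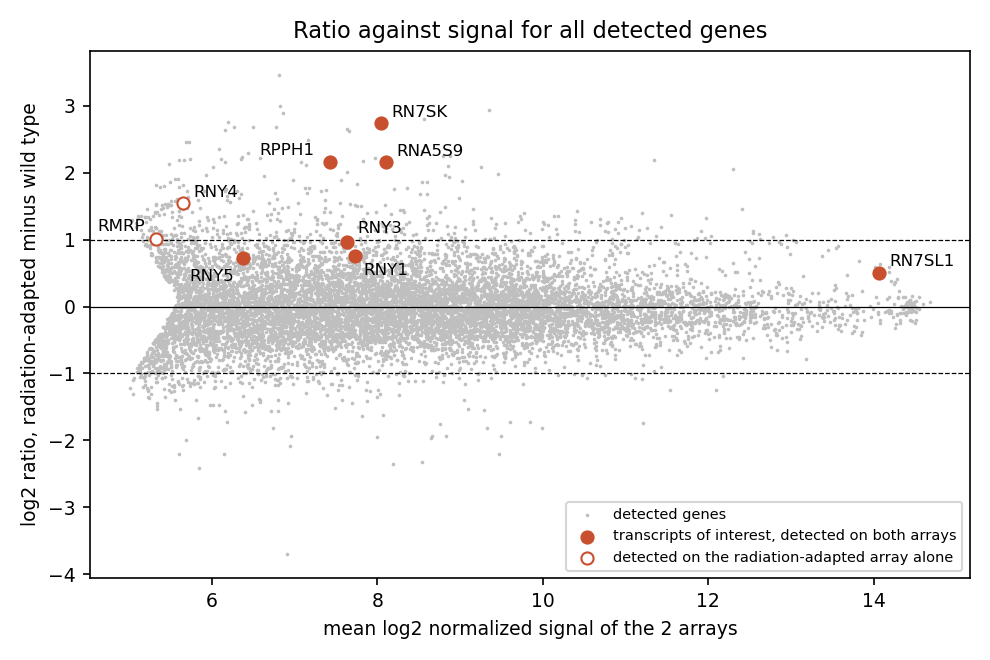
Log2 ratio (radiation-adapted minus wild type) against the mean log2 normalized signal of each of the 10189 detected genes (grey), with the 9 transcripts in red, open where detected on the radiation-adapted array alone. All 9 lie above 0, RN7SK, RPPH1 and RNA5S9 stand above 2, and dashed lines mark 2-fold.

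The Y RNAs are bound by Ro60 and La and are known from RNA quality control and DNA replication; their genes lie in a cluster. RNY1 read 269.3 in wild type and 395.7 in radiation-adapted cells, a ratio of 1.69-fold. RNY3 read 247.8 and 396.9, a ratio of 1.96-fold. RNY5 read 173.8 and 223.9, a ratio of 1.66-fold. These 3 were detected on both arrays and all stayed under 2-fold, with log2 ratios from 0.73 to 0.97. RNY4 read 137.8 in wild type, not detected, and 202.4 in radiation-adapted cells, a measured ratio of 2.93-fold with a bound of at least 1.84-fold. The order of the Y RNAs was thus uncertain, since their log2 ratios, other than that of RNY4 by its measured value, lay within 0.47 of each other, the SD between probes of a gene.

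The scatter of ratios was larger at low signal. Detected genes were split by mean signal into 4 equal classes. In the dimmest, which held RMRP, RNY4 and RNY5, the SD of the log2 ratio was 0.66 and 7.26% of genes were at least 2-fold higher. In the next class, with RN7SK, RPPH1, RNY1 and RNY3, the SD was 0.54 and 3.65% were as much higher. The class of RNA5S9 had an SD of 0.48, and the brightest, with RN7SL1, one of 0.39. The log2 ratios of RN7SK, RPPH1 and RNA5S9, from 2.16 to 2.74, were several times the SD of their class. RMRP at its bound (0.27) was below the SD of its class. The ratios of RNY5 (0.73), RN7SL1 (0.51), RNY1 (0.76), RNY4 at its bound (0.88) and RNY3 (0.97) were above that of their class by a smaller margin.

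**Figure D3:**
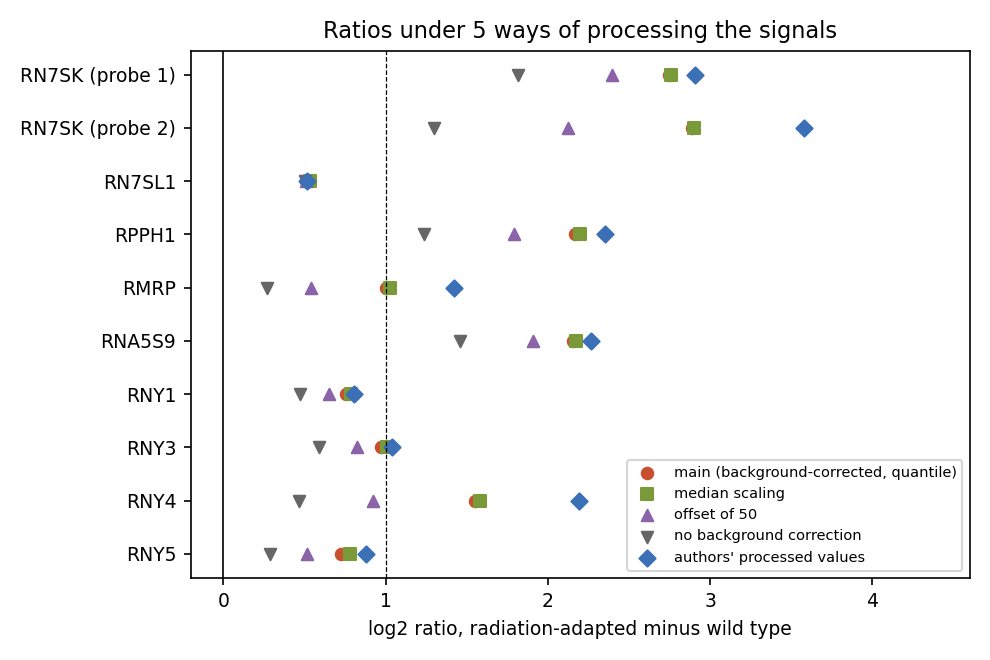
Log2 ratio of each probe of the 9 transcripts under 5 ways of processing the signals, with a solid line at 0 and a dashed line at 2-fold. Every value is above 0, RN7SK, RPPH1 and RNA5S9 are past 2-fold in all 5, and RN7SL1 moves least, from 0.50 to 0.53.

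The size of the ratios depended on the background correction. Without it the median of the 9 was 0.50, with RN7SK at 1.82, RNA5S9 at 1.46 and RPPH1 at 1.24, and these 3 were the ones past 2-fold, where 98 of 10190 genes were. With the authors' processed values, floored at 16, the median was 1.42 and 6 were past 2-fold, RNY3 being added. So were 6.21% of all genes in that setting. The floor replaced the wild type values of RMRP (9.4) and RNY4 (11.5), so their ratios there rest on it. The median was that of RMRP.

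The protein-coding genes next to these transcripts were all under 2-fold where both arrays detected them, as were most detected genes. PARP2, which makes poly(ADP-ribose) at DNA breaks and starts beside RPPH1, read 780.3 in wild type and 573.8 in radiation-adapted cells with its brighter probe and 398.8 and 327.3 with the other. Both probes were thus lower, at -0.58 and -0.50, beside 2.17 for RPPH1, across the window printed above. CCDC107, next to RMRP, read 161.0 and 153.6 and was not detected in radiation-adapted cells. GSTA4, a glutathione transferase gene next to RN7SK, was at 0.18, and CILK1, on the other side, at -0.54 with its detected probe. RPS29 and LRR1 beside RN7SL1 were at -0.03 and -0.02 with their brightest probes. EZH2 and PDIA4, on either side of the Y RNA cluster, were at -0.16 and 0.26, and RNF187 beside RNA5S9 was at 0.19. Of 17 probes of 9 neighbouring genes that were detected on both arrays, 0 were at 2-fold, and they ran from -0.89 (EZH2) to 0.26.

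**Figure D4:**
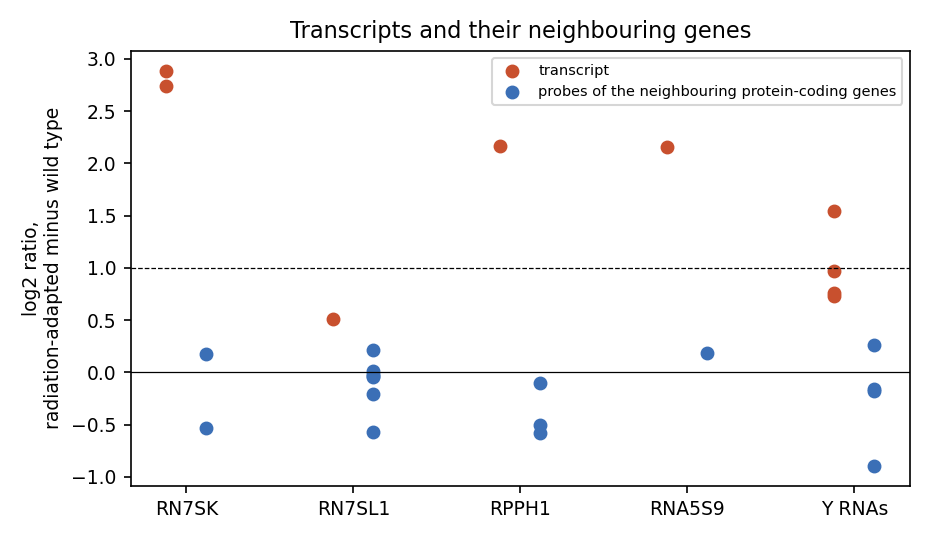
Log2 ratio (radiation-adapted minus wild type) of the transcripts (red, both probes of RN7SK) and of the probes, detected on both arrays, of the nearest named protein-coding genes on either side (blue). The red points lie from 0.51 to 2.89 and the blue points from -0.89 to 0.26; RMRP is not drawn, since its neighbours were not detected on both arrays.

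Messenger RNAs of the transcription machinery were in most cases below 0, as were most detected genes, of which 46.6% were above 0. Of 17 detected subunits of RNA polymerase III, including those shared with the other polymerases, 4 were above 0, with a median of -0.23. Among them 1 was at least 2-fold higher and none at least 2-fold lower, beside 4.02% and 2.07% of all detected genes. The large catalytic subunits POLR3A and POLR3B were at -0.08 and -0.55 by their brightest probes, and POLR3C, the lowest, at -0.60. A further POLR3A probe, detected on both arrays, was at 0.31. CRCP was the exception at 2.42-fold higher, from 1338.3 in wild type to 3150.3 in radiation-adapted cells, and a dim probe was at least 1.65-fold higher, but a further detected probe was at -0.51, so its ratio is uncertain. Of 16 detected initiation factors and regulators 6 were above 0, with a median of -0.11. GTF3C1, the largest subunit of the TFIIIC complex that binds internal promoters, read 299.8 and 553.0, 2.23-fold higher. The other detected TFIIIC genes lay, by their brightest probe, from -0.35 (GTF3C3) to 0.09 (GTF3C2). Further probes, detected on both arrays, were at 0.58 for GTF3C2 and at -0.64 for GTF3C4. Among detected SNAPc genes, SNAPC1 was at 0.48, SNAPC5 at 0.35, SNAPC4 at 0.29 and SNAPC2 at -0.59. A further SNAPC1 probe, detected in wild type cells alone, had a measured log2 ratio of -0.49. The repressor gene MAF1 was at 0.13, TBP at -0.16 and GTF3A, which recognises the 5S gene, at -0.21.

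Messenger RNAs for the proteins that hold these RNAs had list medians between -0.17 and 0.01. Of 7 genes of the 7SK particle, 2 were above 0 and the median was -0.17. LARP7, which binds the end of 7SK, was at -0.30, its capping enzyme gene MEPCE at -0.17, HEXIM1, the inhibitor of P-TEFb, at 0.25, the kinase gene CDK9 at 0.14 and CCNT1 at -0.49. HEXIM2 read 246.7 and 188.6, at -0.94 the farthest from 0 of that list. Of 8 genes of the signal recognition particle and its receptor 3 were above 0, with a median of -0.02 and SRP68 (-0.73) and SRP19 (0.30) farthest from 0. Of 10 genes of RNase P and MRP proteins 5 were above 0, with a median of -0.02 and RPP14 (-0.62) and POP4 (0.40) at the ends. The 10 genes for Ro60, La and 5S partners ran from -0.20 (PUF60) to 0.10 (RRS1), with RO60 at -0.09, SSB, which encodes La, at 0.04, RPL5 at 0.02 and RPL11 at 0.06. Over all 68 detected genes of these 6 lists the median was -0.09, and 26 (38.2%) were above 0, beside 46.6% of all detected genes. Of the 68, 2 were at least 2-fold higher and none at least 2-fold lower, beside 4.02% and 2.07% of all detected genes.

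**Figure D5:**
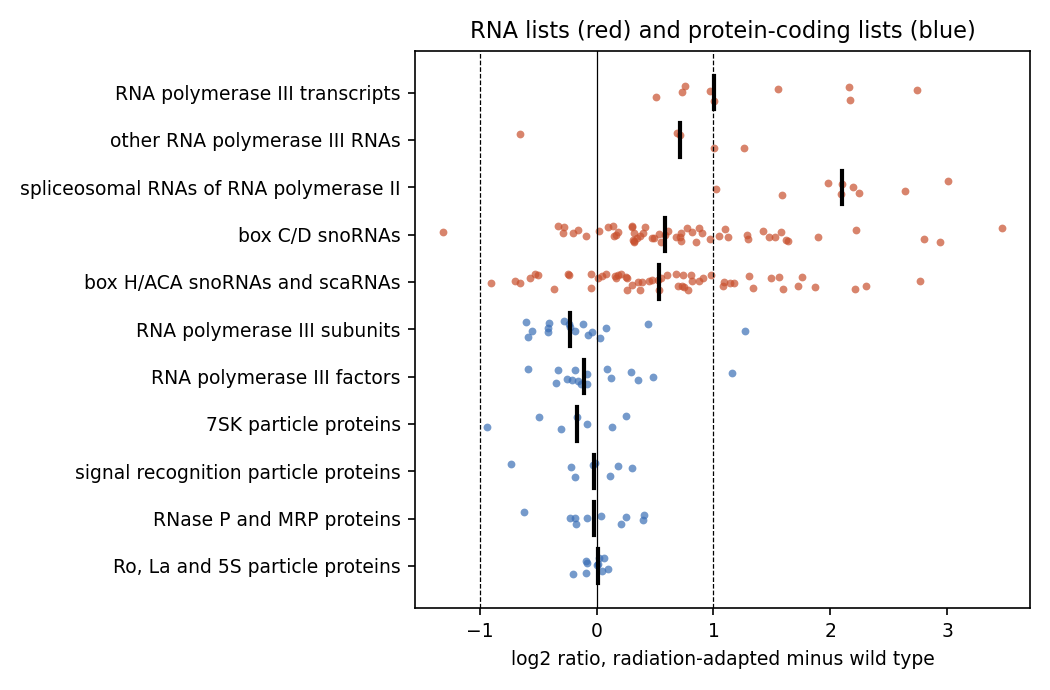
Log2 ratio (radiation-adapted minus wild type) of each detected gene, by list, with the list median as a black bar; RNA lists are red and protein-coding lists blue, and dashed lines mark 2-fold. Medians of the red lists lie from 0.53 to 2.10 and those of the blue lists from -0.23 to 0.01.

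Other RNA polymerase III products on the array were mixed. Of 8 such genes 5 were detected, 4 of them above 0. The spliceosomal RNA U6 (RNU6-1) read 1442.2 and 2361.9, a ratio of 1.64-fold, and the brain cytoplasmic RNA BCYRN1, related to 7SL, read 990.4 and 1557.2, a ratio of 1.61-fold. The minor spliceosomal RNA U6atac (RNU6ATAC) was 2.01-fold higher with its brighter probe and at least 2.66-fold with the other. The vault RNA VTRNA1-1 was not detected in wild type cells and was at least 1.21-fold higher. SNAR-A1, a member of a family of near-identical copies, went the other way, from 1439.8 in wild type to 971.3 in radiation-adapted cells, 1.58-fold lower. VTRNA1-2, VTRNA2-1 and SNAR-I were not detected on either array.

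Most detected small RNAs made by RNA polymerase II were also higher. All 9 detected spliceosomal RNAs of that kind were at least 2-fold higher by measured ratio, with a median of 2.10. Of all detected genes 4.02% were as much higher. By their brightest probes, 5 of the 9 were detected on both arrays, with a median of 2.09, and 4 in radiation-adapted cells alone. Those 4 had to be higher there. RNU11 was at least 6.84-fold higher with its brightest probe, RNU1-3 4.75-fold, RNU4-2 at least 3.81-fold and RNU4-1 at least 2.21-fold. A further RNU11 probe, detected on both arrays, was 4.99-fold higher, so the bound of the brightest probe is not one for the gene. At its bound RNU5A-1 was under 2-fold, at 1.67-fold. Of 176 box C/D small nucleolar RNAs on the array 55 were detected. Of these, 35 were detected on both arrays, with a median of 0.41 and 31 above 0, beside 4287 of 9144 genes so detected. In radiation-adapted cells alone 17 more were detected, which had to be higher there, beside 449 of all 10189 detected genes. SNORD67, SNORD114-2 and SNORD95 were detected in wild type cells alone. SNORD3D (7.65-fold) and SNORD3A (6.96-fold), copies of U3, and SNORD3C (at least 7.96-fold) and SNORD38A (at least 4.42-fold) were the highest. Of 125 box H/ACA and Cajal body RNAs 57 were detected. SNORA68, SNORA49, SNORA70C and SNORA17A were detected in wild type cells alone. On both arrays 35 were detected, with a median of 0.31 and 27 above 0, and 18 more in radiation-adapted cells alone. Of the latter, SNORA73A was at least 4.11-fold, SCARNA14 at least 4.08-fold, SCARNA8 at least 3.16-fold and SNORA79 at least 1.84-fold higher. Over every detected gene of these lists the medians were 0.58 and 0.53. Whether these RNAs and the 9 transcripts differed was not tested, since there was 1 array per state. The ribosomal RNA signals given above moved with the 9 transcripts, and the part that recovery or priming of RNA without a poly(A) tail had in the ratios was not tested.

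The arrays had similar numbers of detected probes, 15887 in wild type and 15399 in radiation-adapted cells. The medians over all probes, 137.0 and 139.3, lay below the lowest detected signals, 156.9 and 164.6. They thus describe background and do not measure depth of signal. Of 7 Ewing sarcoma markers on the array all were detected on both, among them CD99 and FLI1, with NKX2-2 (-0.68) and BCL11B (0.58) farthest from 0. Of 5 leukocyte markers, CD68 was detected on both arrays. It was 1.86-fold higher in radiation-adapted cells with its brightest probe, but at -0.23 with another probe that both arrays detected. LYZ was detected in wild type cells alone, at least 1.11-fold higher there, while PTPRC was not detected. Of 5 epithelial markers, MUC1 (-0.31) and EPCAM (-0.18) were detected and CDH1 was not, and 0 of 4 endothelial markers were. The part of these markers in the ratios of the 9 transcripts was not tested.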

How the data were processed

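Total RNA was extracted with Trizol and labelled with a TotalPrep kit, per the labels' protocols. The authors deposited an average bead signal intensity per probe, neither background-subtracted nor normalized, and a detection p-value, per the file headers. A second deposited table holds processed intensity values on a linear scale and was used as an alternative. Its values under 16 were set to 16 before taking log2. For neither table is the software that made it given in the sources used here.

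The signals were corrected with neqc of limma 3.58.1 in R 4.3.3 (normexp from the detection p-values, an offset of 16, quantile normalization, log2); later steps used Python 3.11.15. The offset makes ratios of dim genes smaller. Symbols came from the platform annotation through a RefSeq table (GRCh38.p14), which served only for names and neighbours because the array files name no build: 30113 probes had 1 symbol, 8 several and 17202 none. A gene was represented by its brightest probe. For a gene that 1 array alone detected, a bound was used: its signal over the lowest signal the other array detected, or over its own signal there where that was higher. This bound has no allowance for measurement error and holds only with this background correction and offset. Without background correction the log2 ratio of RNY4 was 0.47, below its bound of 0.88. The steps were tested on simulated data.

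The members and lists were chosen with earlier results of these data known. Genes were named by a rule: all 9 members with every probe, all other detected RNA polymerase III RNAs, and from each list up to 4 genes at 2-fold or more or else the 2 largest. Other list genes, the neighbours and the ribosomal RNAs were named after their values were seen. The 7 alternatives were the background correction, scaling, offset, starting values, probe choice and 2 detection filters; setting genes at their bound was added after seeing the data.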

Additional observations from a re-analysis of the deposited data

How the results depend on the processing

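With 1 array per state, no replicate could be left out and no paired analysis was possible because the result comes from no test. Under the 4 other ways of processing the signals the 9 transcripts gave 36 log2 ratios, and all 36 were above 0. They come from the same 2 arrays, where the raw signals of all 9 were already higher in radiation-adapted cells. They therefore add no support for the direction. The detection filters, the probe choice and the bounds, which were added after seeing the data, leave most ratios of the 9 as they are. The median of the 9 went from 1.0 to 0.50 without background correction, and was 0.88 with genes at their bound. The count at 2-fold or more, 5 beside 4.02% of all genes, was 3 without background correction (0.962% of all genes), with an offset of 50 (2.09%), over genes detected on both arrays (2.77%) and at the bounds (2.93%), in each case without RMRP and RNY4; it was 6 with median scaling (4.31%) and with the authors' processed values (6.21%). At 4-fold or more the count went from 3 to 0 without background correction and to 1 with an offset of 50. The share of all genes at 2-fold or more also fell in these settings. The median of the spliceosomal RNAs was 1.42 without background correction. RNY4 had the widest range of the 9, from 0.47 without background correction to 2.19 with the authors' processed values. In the latter its wild type value was set to the floor of 16. The log2 ratios of dim probes depend on background correction, so the folds of RMRP, RNY4 and RNY5 are uncertain, and so are the sizes for RN7SK, RPPH1 and RNA5S9, though these 3 stayed past 2-fold.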
